A study of Mus musculus with 6 samples.

Results

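let-7 was among the first microRNAs (miRNAs) found, in the worm, where it drives the change from larval to adult cell fates. In mammals it is a family of near-identical miRNAs that share 1 seed, the stretch of bases that pairs with the target mRNA. The family is low in stem cells, where the RNA-binding protein LIN28 blocks the maturation of its precursors, and high in differentiated tissue, adult brain included, where its known targets are growth and proliferation genes such as Hmga2, Lin28, Myc and Ras. Hairpin precursors of miRNAs are double-stranded RNA, which ADAR enzymes bind and in which they turn adenosine (A) into inosine.

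The 9 guide strands let-7a, let-7b, let-7c, let-7d, let-7e, let-7f, let-7g, let-7i and miR-98 were taken by name from the 1055 mature miRNAs in the deposited read tables, and all 9 were found in each of the 6 libraries. Small RNA had been sequenced from whole brain of 3 wild-type and 3 Adar2-/- mice, female siblings of strain 129SV aged 5.5 months, with 1 library and 1 sequencing lane per brain. Mice without ADAR2 die young unless the Gria2 gene already encodes the edited form of its glutamate receptor subunit, so all 6 mice were homozygous for such a pre-edited allele (Gria2 R/R), and wild type here refers to Adar2 alone. The comparison asks whether loss of ADAR2 changes the abundance of mature miRNAs in adult brain. Abundance is given as RPM, the reads of a miRNA per 1e+06 miRNA reads mapped in its library. In a whole-brain sample, fewer cells of a type and less of a miRNA per cell cannot be told apart. Lane and brain likewise coincide and cannot be told apart.

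The mature sequences show why the family is counted together and why its members are hard to keep apart. The RefSeq sequences (GRCm38.p6) matched all 9 members, each 22 nucleotides long, and are written 5′ to 3′ with the seed, bases 2 to 8, in capitals.
let-7a: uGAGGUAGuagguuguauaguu
let-7b: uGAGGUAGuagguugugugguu
let-7c: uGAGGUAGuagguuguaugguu
let-7d: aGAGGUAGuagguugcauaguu
let-7e: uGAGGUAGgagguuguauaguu
let-7f: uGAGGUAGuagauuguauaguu
let-7g: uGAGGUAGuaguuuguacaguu
let-7i: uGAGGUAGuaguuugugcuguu
miR-98: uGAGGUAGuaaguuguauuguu

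The seed was the same in all 9, and of the 104 base differences counted over the 36 pairs of members 0 lay within it. Of these pairs, 4 differed at 1 base and 10 at 2 bases. Position 1 is the 5′ base. Against let-7a, the substitution is A19G in let-7c, U9G in let-7e and G12A in let-7f, and let-7b carries both A17G and A19G. let-7d differs from let-7a by U1A and U16C, let-7g by G12U and U18C, and miR-98 by G11A and A19U. let-7i stands farthest from let-7a, with G12U, A17G, U18C and A19U. The authors' mapping allowed about 2 mismatches and weighted reads that hit several miRNAs equally well. Reads of 1 member that carry a mismatch can therefore have been counted for another, and how many were was not tested.

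1 other row of the tables, miR-1961, holds the same bases 2 to 8 (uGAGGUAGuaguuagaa, 17 nucleotides). It had between 0 and 3 reads per library and adds nothing to the family's total.

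The 9 mature sequences lie in 12 hairpins on 7 chromosomes of NCBIM37, the mouse build of the annotation used (mm9 in the submitters' notes). let-7a, let-7c and let-7f each come from 2 hairpins and the other 6 from 1. Mirlet7a-1 (chr13:48633548-48633641), Mirlet7f-1 (chr13:48633198-48633286) and Mirlet7d (chr13:48631381-48631483) stand together on the minus strand. Mirlet7c-2 (chr15:85537033-85537127) and Mirlet7b (chr15:85537749-85537833) lie 621 bp apart on the plus strand. Mirlet7i (chr10:122422696-122422780, minus strand) stands alone. These 6 hairpins and Mirlet7e (chr17:17967316-17967408, plus strand) overlap no other annotated gene.

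4 hairpins lie in introns of genes on their own strand. Mirlet7f-2 (chrX:148346889-148346971) and Mir98 (chrX:148347757-148347864) lie 785 bp apart in an intron of Huwe1, a ubiquitin ligase gene. Mirlet7g (chr9:106081171-106081258) lies in an intron of Wdr82, and Mirlet7a-2 (chr9:41344799-41344894) in an intron of the long non-coding RNA gene D230004N17Rik, which also holds Mir100 and Mir125b-1. Mirlet7c-1 (chr16:77599902-77599995, plus strand) follows Mir99a at 656 bp and lies opposite an intron of Gm11146. Mirlet7e lies 367 bp before Mir125a, and miR-99b is known to come from the same cluster, though its hairpin was not located here. Reads of let-7a, let-7c and let-7f cannot be divided between their 2 hairpins.

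The wild-type libraries held 12449633 to 23471819 mapped miRNA reads and the Adar2-/- libraries 18645810 to 23935544. Of 4 miRNAs that mark neurons and brain (miR-124, miR-9, miR-128, miR-137), 4 were found in every library, at a summed 113471 to 166727 RPM in wild type and 122479 to 127497 in Adar2-/-, most of it miR-9. miR-9 was highest in wild-type replicate 1 (151020 RPM) and lowest in Adar2-/- replicate 3 (99104 RPM). miR-124, miR-128 and miR-137 were each highest in Adar2-/- replicate 3, so the sum does not stand for the single markers. Pineal and sensory miRNAs (miR-182, miR-183, miR-96) summed to 108156 to 155374 RPM in wild type, but to 186903, 89664 and 19158 in the Adar2-/- libraries. The pituitary list (miR-375, miR-7a, miR-7b, miR-141, miR-200c) reached 8969 RPM in wild-type replicate 1 and 1989 to 4855 in the other libraries. Here too the sum hides markers that diverged. In Adar2-/- replicate 3 most of it was miR-7a (3585 RPM) and miR-7b (1074 RPM). That library had the lowest miR-141 (46.5 RPM) and miR-200c (94.2 RPM) of all. The range of miR-375 was 42.9 to 113 RPM once wild-type replicate 1, with 3294 RPM, is set aside. Blood miRNAs (miR-451, miR-144, miR-486, miR-223, miR-150) summed to 1037 to 2017 RPM and choroid plexus miRNAs (miR-204, miR-211, miR-449a) to 838 to 1624. No marker miRNA was at 0 in any library, and none of those tested passed. Adar2 mRNA was not analysed here, so the genotype labels were not checked.

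In the wild-type brains, taken in replicate order, let-7 and miR-98 together made up 3.98%, 2.86% and 2.78% of all mapped miRNA reads (mean 3.21% ± 0.668, SD, n = 3). In the Adar2-/- brains they made up 2.93%, 4.71% and 6.44% (mean 4.69% ± 1.76, SD, n = 3). The 2 highest libraries were thus Adar2-/- replicates 3 and 2, wild-type replicate 1 stood next, and Adar2-/- replicate 1 lay among the wild-type libraries. Counting error alone was small, with 95% Wilson intervals no wider than 0.0109 percentage points on each side. The spread between brains was far wider and sets the precision.

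As RPM, the summed family averaged 32075 ± 6685 for wild type against 46938 ± 17584 for Adar2-/- (SD, n = 3 each). The means stood at a ratio of 1.46, or 0.55 on the log2 scale. This log2 ratio was 0.25 without Adar2-/- replicate 3, 0.80 without Adar2-/- replicate 1 and 0.73 without wild-type replicate 1. With the 5 most abundant miRNAs, miR-182 and miR-183 among them, left out of the totals it was 0.42. No test was run on the sum, since its members were chosen with earlier results known.

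Among the members, let-7c was the most abundant in every library, followed by let-7b, let-7g and let-7a. let-7c stood at 22355, 18248 and 16506 RPM in the wild-type libraries (replicates 1 to 3) and at 16285, 28258 and 38133 in the Adar2-/- libraries. Its lowest and its highest library were both Adar2-/-, so the genotypes overlapped over the whole wild-type range. Over all libraries it ranked 11 among the 1055 miRNAs. let-7b stood at 7998, 5627 and 5235 RPM in wild type and at 7152, 9418 and 11787 in Adar2-/-. For let-7b, unlike let-7c, Adar2-/- replicate 1 lay above wild-type replicates 2 and 3.

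let-7g, the product of the Wdr82 intron, stood at 4733, 2566 and 3049 RPM in the wild-type libraries (replicates 1 to 3) and at 3178, 4674 and 7243 in the Adar2-/- libraries. let-7a stood at 1993, 931 and 1207 RPM in wild type and at 1055, 1839 and 2817 in Adar2-/-. For let-7g and let-7a, wild-type replicate 1 lay above Adar2-/- replicate 2, and Adar2-/- replicate 3 was highest. let-7i stood at 1078, 670 and 713 RPM in wild type and at 738, 1164 and 1857 in Adar2-/-. let-7f stood at 1072, 372 and 712 RPM in wild type and at 546, 1092 and 1532 in Adar2-/-. let-7i was above let-7f in each library, but their means of 820 ± 224 and 719 ± 350 RPM (SD, n = 3) in wild type and of 1253 ± 565 and 1057 ± 494 in Adar2-/- lay within the spread.

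let-7e, let-7d and miR-98 were the least abundant members. let-7e stood at 204, 95.9 and 198 RPM in the wild-type libraries (replicates 1 to 3) and at 111, 332 and 485 in the Adar2-/- libraries. miR-98 stood at 170, 64.1 and 91.7 RPM in wild type and at 122, 185 and 294 in Adar2-/-. let-7d stood at 173, 68.6 and 91.3 RPM in wild type and at 69.5, 175 and 273 in Adar2-/-. The wild-type means of these 3 members, 166 ± 60.8 RPM for let-7e, 109 ± 55.1 for miR-98 and 111 ± 55.1 for let-7d (SD, n = 3), lay within their spread between brains. Within libraries, let-7e was above let-7d in all 6 and above miR-98 in 5, the exception being Adar2-/- replicate 1. The lowest count of any member in any library was 1295 reads, so depth did not limit these values.

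**Figure D1:**
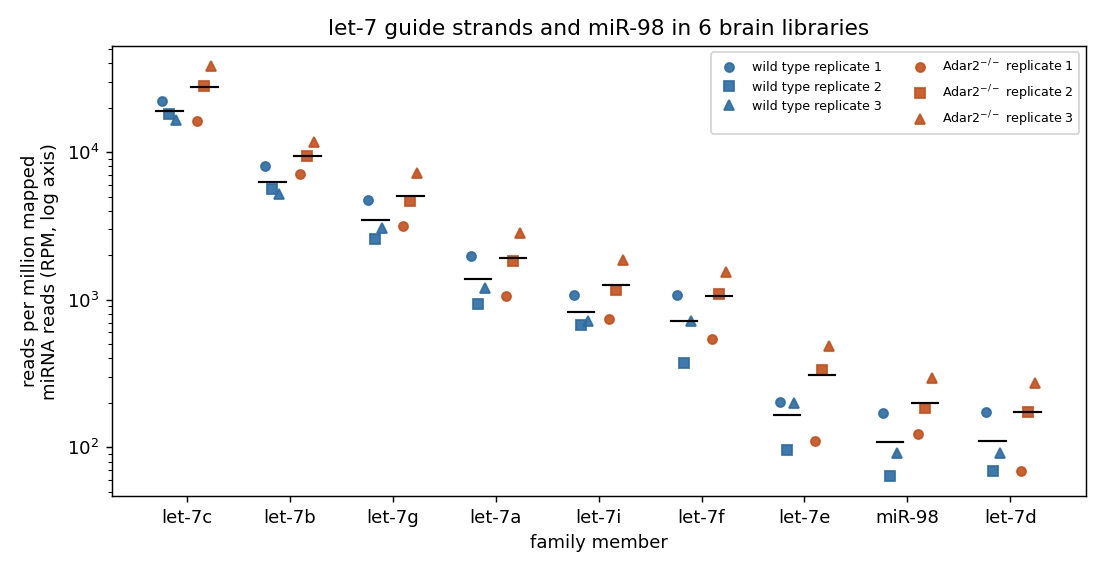
Each point is the level of 1 family member in 1 library, in RPM on a log axis. Blue marks wild type and orange Adar2-/-, the marker shape is the replicate number and the black line is the mean of 3 libraries. Adar2-/- replicate 3 was highest for all 9 members, and the genotypes overlapped for all 9.

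The genotypes overlapped for all 9 members, as they did for most of the 399 miRNAs tested, those that reached 100 reads in each library. For 5.76% of these 399 they did not overlap. Adar2-/- replicate 3 was the highest library for 9 of 9 members. Adar2-/- replicate 2 came next, followed by wild-type replicate 1, for 7 of them, and these libraries changed places for let-7a and let-7g. Adar2-/- replicate 1 lay below wild-type replicate 1 for 9 of 9. The highest library held between 2.25 times (let-7b) and 5.06 times (let-7e) the level of the lowest. Over all 399 miRNAs the median of this range was 2.25.

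The 9 members were tested with the other 390 miRNAs by edgeR's quasi-likelihood method. 0 of the 9 passed the adjusted threshold of 0.05, and 0% of the 399 did. The log2 fold changes of Adar2-/- against wild type were above 0 for 9 of 9 members, against 50.4% of all miRNAs tested. They ran from 0.47 for let-7a to 0.90 for let-7e with a median of 0.59, while the median of all 399 was 0.0023. The adjusted p was 0.988 for each member. 0 of 9 members had an unadjusted p under 0.05, against 3.26% of all miRNAs tested. DESeq2 with its own size factors also called 0 of 9, against 0.251% of the 399, with 2 members, miR-98 and let-7e, at an unadjusted p under 0.05, as were 10.0% of the 399.

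let-7e had the largest log2 fold change, 0.90 (standard error 0.519), and miR-98 followed with 0.88 (standard error 0.447). The smallest was that of let-7a, 0.47 (standard error 0.436). let-7b had the smallest standard error, 0.335, at a log2 fold change of 0.59. The remaining log2 fold changes were 0.53 for let-7c, 0.54 for let-7g, 0.56 for let-7f, 0.61 for let-7i and 0.63 for let-7d. With standard errors this wide the members could not be ranked by fold change. In two-sided exact permutation tests of the RPM the p ran from 0.2 to 0.6 over the 9 members, where 0.1 is the smallest that 3 libraries against 3 allow.

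Ratios taken between the Adar2-/- and wild-type libraries that share a replicate number split the family by replicate. In replicate 1, 9 of 9 members were lower in Adar2-/-, with a median log2 ratio of −0.57, while 133 of the 399 miRNAs tested were higher and their median was −0.31. In replicate 2, 9 of 9 members were higher, with a median log2 ratio of 0.98 against 0.32 over all miRNAs tested. In replicate 3, 9 of 9 were higher, with a median of 1.25 against 0.16. This pattern of lower, higher and higher was shared by 35.3% of the 399 miRNAs. Whether the number pairs the brains is not stated in the sources used here. The direction in replicate 1 rests on setting Adar2-/- replicate 1 against the highest wild-type library. Adar2-/- replicate 1 lay above wild-type replicate 2 for 8 of 9 members and above wild-type replicate 3 for 4.

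The size of these ratios differed among members. In replicate 1 they ran from −0.16 for let-7b to −1.32 for let-7d, and in replicate 2 from 0.63 for let-7c to 1.79 for let-7e. In replicate 3 they lay closer together, from 1.11 for let-7f to 1.68 for miR-98. The member with the smallest or largest ratio was not the same in all 3 replicate numbers.

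**Figure D2:**
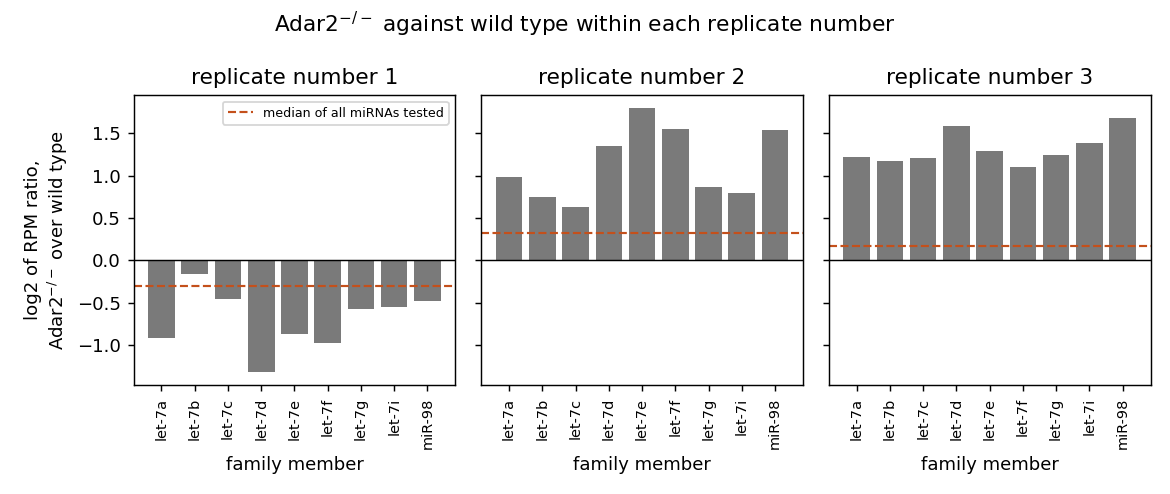
Bars give the log2 of the RPM ratio of Adar2-/- over wild type for each member within replicate numbers 1, 2 and 3, and the dashed line is the median over the 399 miRNAs tested. All 9 bars point down in replicate 1, where the dashed line is at −0.31, and up in replicates 2 and 3, where it is at 0.32 and 0.16.

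Without replicate 1 of both genotypes, edgeR called 18 of the 399 miRNAs (4.51%), each of them higher in Adar2-/-, and 2 of these were members of the family. The log2 fold change was then 1.62 for miR-98 (standard error 0.340, edgeR adjusted p = 0.0476) and 1.49 for let-7d (standard error 0.329, edgeR adjusted p = 0.0476). Both values lie just under the threshold. Replicate 1 was the only number in which the members were lower in Adar2-/-, so a rise of their fold changes without it follows from that choice. The other 7 members lay between 0.93 for let-7c and 1.47 for let-7e, with edgeR adjusted p from 0.0612 for let-7e to 0.0929 for let-7c. Leaving out replicate 3 instead brought let-7a to −0.02, let-7d to 0.01 and miR-98 to 0.39. Without wild-type replicate 1 alone, or without Adar2-/- replicate 1 alone, 0 of 9 members passed in edgeR.

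**Figure D3:**
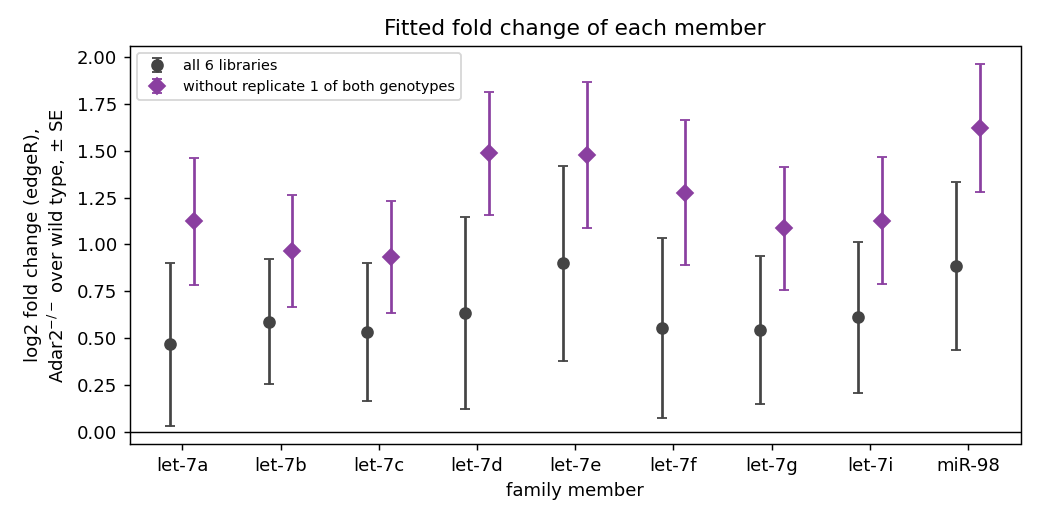
Points give the edgeR log2 fold change of Adar2-/- over wild type for each member and bars its standard error. Grey circles use all 6 libraries and purple diamonds leave out replicate 1 of both genotypes. The fold changes move from 0.47 to 0.90 with all libraries to 0.93 to 1.62 without replicate 1, where miR-98 and let-7d pass the threshold. Replicate 1 is the number in which the members were lower in Adar2-/-. Leaving out replicate 3 instead, not plotted, brought let-7a to −0.02.

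The makeup of the family does not depend on the total used for RPM. let-7b, let-7c and let-7g together held 88.2%, 92.3% and 89.2% of the family's reads in the wild-type libraries (replicates 1 to 3) and 91.0%, 89.8% and 88.7% in the Adar2-/- libraries. let-7c alone took 56.2%, 63.7% and 59.4% in wild type and 55.7%, 59.9% and 59.2% in Adar2-/-. The shares of some less abundant members spread more widely, as that of let-7e did with 0.335% in wild-type replicate 2 and 0.754% in Adar2-/- replicate 3. The mean share of let-7c was 59.8% ± 3.77 in wild type and 58.3% ± 2.29 in Adar2-/- (SD, n = 3), a difference of −1.49 percentage points (two-sided exact permutation test, p = 0.6). On each side, the Wilson interval of a member's share spanned 0.138 percentage points or less.

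The genotypes overlapped in the share of each of the 9 members, and the two-sided exact permutation p ran from 0.3 to 1. The smallest p belonged to miR-98. It took 0.428%, 0.224% and 0.330% of the family's reads in the wild-type libraries (replicates 1 to 3) and 0.417%, 0.393% and 0.456% in the Adar2-/- libraries, a difference of 0.0950 percentage points (p = 0.3, exact permutation test). let-7b took 24.4% in Adar2-/- replicate 1 and 18.3% to 20.1% in the other 5 libraries. let-7f took 1.30% in wild-type replicate 2 and 1.87% to 2.70% in the others. A single library thus stood apart for let-7b and for let-7f.

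**Figure D4:**
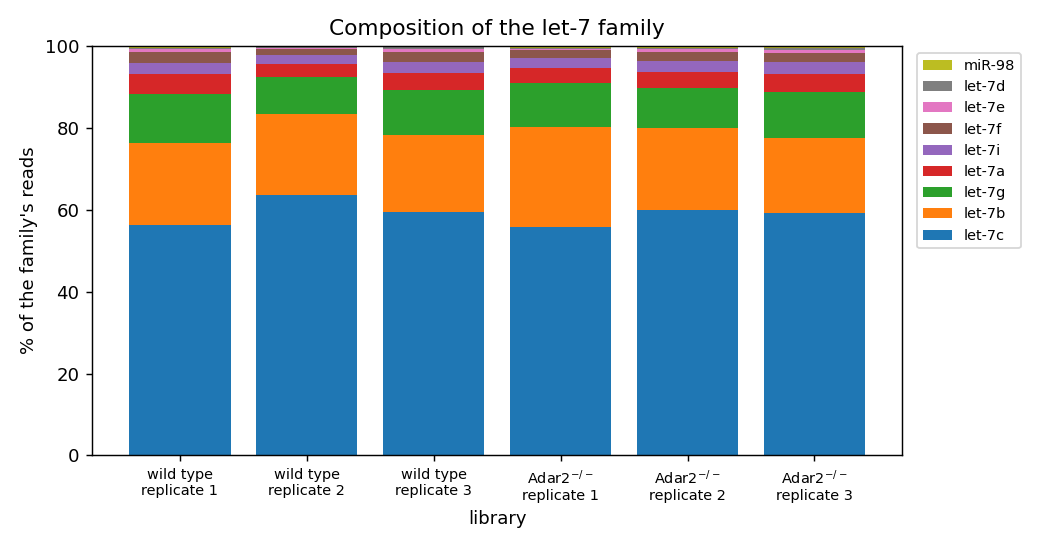
Each bar is 1 library, and its sections are the percent of the family's reads that each member took, from let-7c at the base to miR-98 at the top. let-7c took 55.7% to 63.7%, and let-7b, let-7c and let-7g together took 88.2% to 92.3% in all 6 libraries.

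Inosine is read as guanosine (G), so an edited read of 1 member can have the sequence of another. In 3 pairs the members differ at 1 base that is A in one and G in the other. A12G turns let-7f into let-7a, A19G turns let-7a into let-7c, and A17G turns let-7c into let-7b. Together these pairs form a chain from let-7f over let-7a and let-7c to let-7b. Of all 42 single A-to-G changes that the 9 sequences allow, 3 give the sequence of another member and 5 leave a read as near to another member as to its own. The latter are A17G in let-7a, A19G in let-7e, A19G in let-7f, A17G in let-7g and A11G in miR-98. Editing itself was not analysed here.

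Along this chain the ratios within a library did not differ between the genotypes beyond the spread. The log2 ratio of let-7c to let-7a reads was 3.49, 4.29 and 3.77 in the wild-type libraries (replicates 1 to 3) and 3.95, 3.94 and 3.76 in the Adar2-/- libraries. Its mean was 0.03 higher in Adar2-/- (two-sided exact permutation test over 3 libraries against 3, p = 1). The wild-type libraries thus enclosed all 3 Adar2-/- libraries. For let-7a over let-7f the mean was 0.99 ± 0.30 in wild type and 0.86 ± 0.10 in Adar2-/- (SD, n = 3; exact permutation p = 0.6). For let-7b over let-7c it was −1.61 ± 0.11 and −1.49 ± 0.27 (SD, n = 3; exact permutation p = 0.6). These were the 3 pairs compared.

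Each hairpin also gives a star strand, the arm opposite the guide that is mostly degraded. The tables hold 12 star rows of the family, with 28 to 1494 reads per library. 6 of them reached 100 reads in every library. The rows let-7a-1* and let-7c-2* had identical counts in all 6 libraries, and their RefSeq sequences are identical too.
let-7a-1* and let-7c-2*: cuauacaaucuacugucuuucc

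They are thus 1 measurement that cannot be given to either hairpin. Whether each row holds all of the shared reads or a share of them is not stated, so the level of this star and the guide to star ratios of let-7a and let-7c may be off by a constant. A constant share would leave the differences between libraries as they are. let-7i*, the most abundant star, stood at 99.8, 42.6 and 63.7 RPM in the wild-type libraries (replicates 1 to 3) and at 53.8, 61.0 and 48.9 in the Adar2-/- libraries. Its log2 fold change was −0.33 (standard error 0.371, edgeR adjusted p = 0.988). The shared row of let-7a-1* and let-7c-2* stood at 39.0, 17.0 and 27.5 RPM in wild type and at 27.8, 21.5 and 18.1 in Adar2-/-. Wild-type replicate 1 was the highest library for these rows.

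The log2 fold changes of the 6 star rows tested, with the shared row counted under both names, ran from −0.33 to −0.00022 with a median of −0.28. All 6 were below 0, where 50.4% of all miRNAs tested were above 0, but that of let-7g*, −0.00022, was in effect 0. Those of the 9 guides were above 0. 0 of the 6 passed in edgeR, 0 had an unadjusted p under 0.05, and DESeq2 called 0. The other star rows fell below 100 reads in a library and were not tested. Among them, mean RPM was higher in Adar2-/- for let-7a-2*, let-7c-1*, let-7f-1* and miR-98*, at ratios of 1.09, 1.10, 1.21 and 1.26. It was lower for let-7b* and let-7e*, at ratios of 0.89 and 0.88. In replicate 1, 6 of 6 tested star rows were lower in Adar2-/-, with a median log2 ratio of −0.42. In replicate 2, 6 of 6 were higher, with a median of 0.30. In replicate 3, where the guides had a median of 1.25, the stars had one of −0.49 and 5 of 6 were lower. The medians of all miRNAs tested were −0.31, 0.32 and 0.16 in replicates 1 to 3, so the tested stars stood near them in replicates 1 and 2.

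The ratio of guide to star reads within a library sets the arms against each other without any scaling. let-7i over let-7i* had log2 ratios of 3.43, 3.98 and 3.48 in the wild-type libraries (replicates 1 to 3) and of 3.78, 4.25 and 5.25 in the Adar2-/- libraries. The mean was 0.79 higher in Adar2-/- (two-sided exact permutation test, p = 0.2). let-7g over let-7g* had log2 ratios of 8.51, 8.33 and 8.63 in wild type and of 8.29, 8.92 and 9.68 in Adar2-/-. The mean was 0.48 higher in Adar2-/- (two-sided exact permutation test, p = 0.4).

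In all 6 guide and star pairs, Adar2-/- replicate 3 had the highest ratio and replicate 2 the second highest, both above every wild-type library. Adar2-/- replicate 1 lay within the wild-type range in 3 pairs and below it in the other 3, let-7a, let-7d and let-7g. The difference of the genotype means ran from 0.48 to 0.79 over the 6 pairs, and the two-sided exact permutation p from 0.2 to 0.4. All 6 differences were smaller without Adar2-/- replicate 3, at 0.20 for let-7a, 0.29 for let-7c, 0.22 for let-7d, 0.39 for let-7f, 0.12 for let-7g and 0.38 for let-7i, and without replicate 3 of both genotypes that of let-7d was 0.03. Without replicate 1 of both genotypes they ran from 0.82 for let-7g to 1.55 for let-7f. The guides let-7a, let-7c and let-7f come from 2 hairpins each, so their reads are set against the star of 1 of them, and the pairs of let-7a and let-7c share their star counts. Pairs whose star fell below 100 reads in a library were left out, and not all of those had the same order. The ratio of let-7a to let-7a-2* was lower in Adar2-/- replicate 2 (43366 over 70 reads) than in wild-type replicate 1 (24816 over 31). Arms differed outside the family too, with edgeR log2 fold changes of 0.80 for miR-128 and −0.52 for miR-128-1*. For miR-379 (−0.48) and miR-379* (0.44) the difference went the other way. How many other hairpins had the order of libraries seen here was not counted, so it cannot be called particular to let-7.

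**Figure D5:**
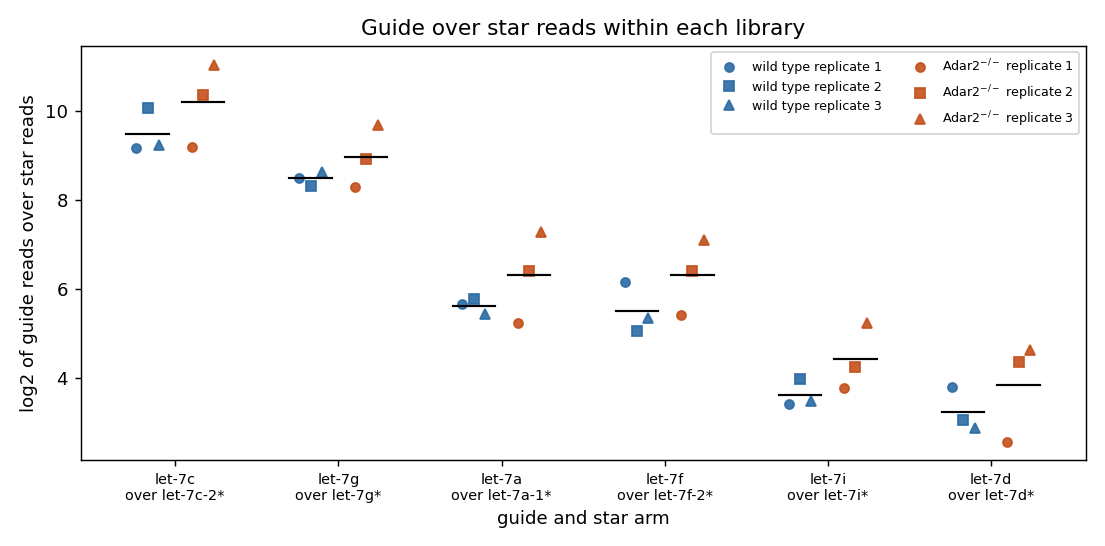
Each point is the log2 of guide reads over star reads in 1 library for 6 guide and star pairs, with blue for wild type, orange for Adar2-/- and the marker shape for the replicate number. Black lines are means of 3 libraries. Adar2-/- replicates 2 and 3 lie above every wild-type library in all 6 pairs, and replicate 1 does not.

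miRNAs encoded in the same clusters can be set beside the members. miR-99a and miR-100 belong to 1 seed family, miR-99b included, and miR-125a-5p and miR-125b-5p are the mammalian relatives of the worm miRNA lin-4. 0 of these 5 passed in edgeR and 0 had an unadjusted p under 0.05, while DESeq2 called 0 and had 1, miR-99b, at an unadjusted p under 0.05 (10.0% of all miRNAs tested). miR-99a, the neighbour of let-7c-1, stood at 1138, 1040 and 1122 RPM in the wild-type libraries (replicates 1 to 3) and at 1035, 1381 and 1603 in the Adar2-/- libraries. It thus had the same order of Adar2-/- libraries as let-7c, over a narrower range.

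miR-99b, from the cluster of let-7e, stood at 10780, 6726 and 9174 RPM in wild type and at 4430, 6733 and 4964 in Adar2-/-. Its log2 fold change was −0.73 (standard error 0.331), opposite in sign to the 0.90 of let-7e, and the difference between them was not tested. Between Adar2-/- replicate 1 and replicate 3, let-7e went from 111 to 485 RPM and miR-99b from 4430 to 4964. miR-100, miR-125a-5p and miR-125b-5p had log2 fold changes of 0.05, 0.05 and 0.20.

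Across the 6 libraries the log2 RPM of the 9 members moved together. Pearson's r over the 36 pairs of members ran from 0.79 for let-7b and let-7e to 0.99 for let-7a and let-7d, with a median of 0.94, while the median over all pairs of the 399 miRNAs was 0.16. These pairs share libraries and depth, and through the mapping they may share reads. The 5 other miRNAs closest to the family's summed log2 RPM were miR-128 (r = 0.99, Spearman's rho 0.94), miR-181a (0.98, rho 0.77), miR-29c (0.98, rho 1), miR-34a (0.98, rho 0.94) and miR-320 (0.97, rho 0.83). 28 of the 390 other miRNAs had an r of 0.9 or more. Without Adar2-/- replicates 2 and 3, the libraries farthest from the median, the r of these 5 ran from 0.86 to 0.98.

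miR-128, a neuron-enriched miRNA, stood at 690, 386 and 436 RPM in the wild-type libraries (replicates 1 to 3) and at 457, 849 and 1319 in the Adar2-/- libraries. Its highest libraries, Adar2-/- replicates 3 and 2 and then wild-type replicate 1, were also those of the summed family. Among the other neuron and brain markers, miR-124 stood at 14405, 13519 and 7203 RPM in wild type and at 11198, 14998 and 25453 in Adar2-/-. miR-137 stood at 612, 511 and 377 RPM in wild type and at 500, 836 and 1621 in Adar2-/-. These 3 markers were highest in Adar2-/- replicate 3, where the family was highest and miR-9 was lowest. Over the same libraries the pineal and sensory list had its lowest sum, 19158 RPM, in Adar2-/- replicate 3, where the family was highest, and its highest sum, 186903 RPM, in Adar2-/- replicate 1. The part of such differences between brains in the let-7 values was not tested.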

How the data were processed

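Small RNA libraries from 3 wild-type and 3 Adar2-/- whole brains were compared. The authors removed adaptors with Cutadapt, aligned the rest to miRBase mature miRNAs using NextGenMap with about 2 mismatches, discarded reverse-strand hits and weighted reads that hit several miRNAs equally well. They deposited read counts per miRNA as whole numbers without normalization. How weights became whole numbers is not given in the sources used here. Blank lines of the tables (12) were dropped. Each column was assigned by its genotype and the replicate number of its table.

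The members and lists were chosen with earlier results of these data known. RPM used the total mapped miRNA reads, which ranged from 12449633 to 23935544 per library. The 399 miRNAs that reached 100 reads in each library were tested with the quasi-likelihood method of edgeR 4.0.16 (R 4.3.3), with those totals as library sizes and neither scaling factors nor a block. A Benjamini-Hochberg adjusted p under 0.05 was called. Standard errors of the edgeR fits were back-calculated, as the absolute log2 fold change divided by the square root of the F statistic of its test. The edgeR procedure was tested on simulated data. For single values, exact permutation tests, two-sided, were run over libraries (scipy 1.17.1), so that p-values measure the spread between brains. Named miRNAs are the 9 members, their star strands, miRNAs with the same bases 2 to 8, 5 cluster neighbours, the 5 miRNAs most correlated with the family's sum, and the marker lists for neurons and brain, blood, pituitary, pineal and sensory cells, and choroid plexus. The arms of miR-128 and miR-379 were added for comparison. RefSeq hairpin sequences were matched exactly to NCBIM37 and read against its GENCODE annotation. The alternatives tried were library totals that left out the 5 most abundant miRNAs or the 9 members, TMM factors, DESeq2 1.42.0, a minimum of 10 reads or none, a replicate block with and without TMM factors, and each library or replicate number left out, with the 399 miRNAs kept.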

Additional observations from a re-analysis of the deposited data

How the results depend on the processing

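Of 375 values recomputed under alternatives, 338 kept their direction and their side of the threshold, or moved by less than the spread. The count of calls over all miRNAs was 0 in edgeR under each other scaling, filter and block, 1 under DESeq2, and 0 to 18 with a library or replicate number left out. For the 9 members the count was 0 under the scalings, filters, block and DESeq2, and 0 to 2 with libraries left out, where only leaving out replicate 1 of both genotypes gave calls. Member fold changes were above 0 in 152 of 153 alternative fits. The exception was let-7a, whose log2 fold change ran from −0.015 to 1.12 with libraries left out, while that of let-7d ran from 0.013 to 1.49 and that of miR-98 from 0.39 to 1.62. Adjusted p ran from 0.0735 to 0.998 for let-7a and from 0.0476 to 0.998 for let-7d and miR-98.

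Deviations from the genotype means correlated at −0.0010, −0.08 and −0.01 between libraries of the same number in replicates 1 to 3. The values thus showed no pairing by replicate number, but means of so few libraries cannot settle whether the brains were paired. With a replicate block the members' log2 fold changes ran from 0.45 to 0.94, and 0 passed. No wild-type library correlated best with the Adar2-/- library of its own number.

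Shares of the family's reads changed direction with libraries left out. In percentage points, the difference ran from −0.716 to 0.341 for let-7a, −0.389 to 2.69 for let-7b, −3.27 to 0.484 for let-7c, −0.0515 to 0.113 for let-7d, −0.0464 to 0.209 for let-7e, −0.507 to 0.419 for let-7f, −0.758 to 0.713 for let-7g and −0.0418 to 0.224 for let-7i. For miR-98 it stayed between 0.0433 and 0.148. The log2 ratio ran from −0.18 to 0.25 for let-7c over let-7a, −0.26 to 0.087 for let-7a over let-7f and −0.027 to 0.23 for let-7b over let-7c. The 6 guide to star differences stayed above 0, from 0.034 to 1.55 with libraries left out, and with 10 reads added to each arm. The cause of these changes was not tested. Depth does not limit the guides, while 6 of 12 star rows fell below 100 reads in a library.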
